A study of Schizosaccharomyces pombe with 87 samples.

Results

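The nuclear transfer RNA (tRNA) genes of fission yeast, Schizosaccharomyces pombe, were taken from a deposited genome annotation as the gene records on chromosomes I, II and III whose identifiers begin with SPATRNA, SPBTRNA or SPCTRNA. This rule gave 171 genes among 12633 gene records. The series used chromatin immunoprecipitation and sequencing to profile H3K9me2 and H3K9me3, the methylated forms of histone H3 that mark heterochromatin, in 87 libraries, of which 48 are immunoprecipitated and 39 are input. An ectopic strain set with 56 libraries holds 7 genotypes, namely clr4Δ, wild type, mst2Δ set1Δ, swi6Δ and, each added to swi6Δ, set1Δ, mst2Δ and both of these. An endogenous set with 31 libraries holds 5 of them and has neither clr4Δ nor mst2Δ set1Δ. Swi6 is the fission yeast HP1 protein, Clr4 the H3K9 methyltransferase, Mst2 an acetyltransferase and Set1 the H3K4 methyltransferase, and all strains were grown at 32 °C. Neither annotation used here carries a library's signal, as 0 of the 58359 records of the main one and 0 of the 40352 of the second have a score. Levels of H3K9 methylation at tRNA genes, and their differences between genotypes, were therefore not analysed here. The values below are annotated positions, counts of annotated features and sequence matches. They have no replicates and no sampling error, and no test was run on them.

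RNA polymerase III transcribes tRNA genes from promoter elements that lie inside the gene, the A box and the B box, which the factor TFIIIC binds before it recruits TFIIIB. Transcription stops at a run of T just after the gene, and where a tRNA gene has an intron a dedicated endonuclease and ligase remove it. In fission yeast, tRNA genes stand at the borders of the centromeric domains, and a tRNA alanine gene of the centromere of chromosome I is known to act as a barrier to the spread of heterochromatin. Each centromere has a central core, which carries the specialised histone of the kinetochore, inner repeats on either side of it, and outer dg and dh repeats that carry heterochromatin.

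Several sequences carry the findings that follow, and they are shown first. All were read on the annotated strand from RefSeq (assembly ASM294v3) at RefSeq's own coordinates for the same identifier. All 171 genes had a RefSeq gene of the same identifier, length and strand. The unit of an isoleucine, an alanine and a valine gene is shown because it occurs 4 times around the centromere of chromosome II, and its copy in the left inner repeat lies at II:1618293-1618366 (plus strand), II:1618440-1618513 (minus strand) and II:1619174-1619256 (minus strand). Capitals mark an exact B box, GTTCNANNC, which the alanine gene lacks.

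SPBTRNAILE.06: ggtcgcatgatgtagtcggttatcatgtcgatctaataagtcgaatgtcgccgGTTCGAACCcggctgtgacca
SPBTRNAALA.09: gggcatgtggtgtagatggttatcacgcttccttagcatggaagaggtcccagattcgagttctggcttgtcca
SPBTRNAVAL.06: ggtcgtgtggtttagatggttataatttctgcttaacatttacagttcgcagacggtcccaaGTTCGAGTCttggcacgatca

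Genes with introns, in capitals, are shown next. The lysine pair and the serine pair are given because the genes of each share every base and differ only in where the annotation draws the intron. The lysine pair lies at II:1599706-1599788 and II:1645044-1645126, and the serine pair at II:3350594-3350688 and III:1253193-1253287, all on the plus strand. The arginine gene at II:1160893-1160994 (minus strand) has the longest intron. The methionine genes at II:658451-658531 (plus strand) and II:1598075-1598155 (minus strand) have introns as short as any.

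SPBTRNALYS.07: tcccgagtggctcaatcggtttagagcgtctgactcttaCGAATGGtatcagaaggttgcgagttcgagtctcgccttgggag
SPBTRNALYS.08: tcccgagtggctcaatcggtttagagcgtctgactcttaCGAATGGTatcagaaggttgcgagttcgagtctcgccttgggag
SPBTRNASER.06: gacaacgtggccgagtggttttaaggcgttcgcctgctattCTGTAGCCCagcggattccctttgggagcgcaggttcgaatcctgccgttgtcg
SPCTRNASER.10: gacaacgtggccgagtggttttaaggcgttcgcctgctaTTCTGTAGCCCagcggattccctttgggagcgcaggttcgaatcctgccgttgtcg
SPBTRNAARG.05: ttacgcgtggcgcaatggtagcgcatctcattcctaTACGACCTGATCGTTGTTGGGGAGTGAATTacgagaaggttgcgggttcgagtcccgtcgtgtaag
SPBTRNAMET.04: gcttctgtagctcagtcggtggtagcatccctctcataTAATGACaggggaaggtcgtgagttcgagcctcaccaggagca
SPBTRNAMET.05: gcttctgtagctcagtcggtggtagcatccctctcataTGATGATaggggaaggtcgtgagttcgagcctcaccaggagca

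An aspartate gene at the left border of the centromere of chromosome II, at II:1602347-1602417 (annotated on the plus strand), is shown with its reverse complement and with an aspartate gene of chromosome III at III:1068029-1068099 (plus strand), because only the reverse complement reads as a tRNA. Capitals mark the anticodon.

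SPBTRNAASP.05 as annotated: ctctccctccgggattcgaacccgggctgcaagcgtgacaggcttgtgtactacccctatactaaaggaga
SPBTRNAASP.05 reverse complement: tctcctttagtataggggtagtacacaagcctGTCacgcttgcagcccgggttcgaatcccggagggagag
SPCTRNAASP.05: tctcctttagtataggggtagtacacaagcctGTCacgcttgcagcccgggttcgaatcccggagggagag

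The serine and methionine genes SPATRNASER.03 and SPATRNAMET.03 at I:4265149-4265324 (plus strand) are shown as 1 run because only 7 bases, in capitals, lie between them. The 30 bases that follow are given with the first run of T in capitals.

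SPATRNASER.03 to SPATRNAMET.03: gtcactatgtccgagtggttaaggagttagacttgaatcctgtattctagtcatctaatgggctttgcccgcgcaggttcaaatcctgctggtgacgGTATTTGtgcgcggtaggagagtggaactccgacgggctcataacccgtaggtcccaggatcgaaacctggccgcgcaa
After SPATRNAMET.03: ctcTTTTTTTgcttgtttttaaaataactt

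Chromosome II held the most tRNA genes and chromosome III the most for its length. There were 56 genes on I, 68 on II and 47 on III. Over the RefSeq lengths of the chromosomes these are 10.04, 14.98 and 19.16 genes per Mb. They made up 1.0%, 1.46% and 1.97% of the gene records of the 3 chromosomes. The strands were used almost equally, with 91 genes on the plus strand and 80 on the minus strand.

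All 20 amino acids had genes. By identifier, arginine, leucine and serine had 13 genes each, and alanine, glycine, lysine and valine had 12 each. Glutamate and threonine had 10, isoleucine and proline 9, aspartate 8, methionine 7, asparagine and glutamine 6, phenylalanine 5, histidine and tyrosine 4, and cysteine and tryptophan 3. An anticodon loop was found from the sequence of 168 of the 171 genes, and in all 168 the anticodon decoded the amino acid of the identifier. There were 45 distinct anticodons. Alanine AGC and valine AAC were held by 9 genes each, arginine ACG, glycine GCC, isoleucine AAT and lysine CTT by 8 each. Methionine CAT was held by 7 genes, 4 of 1 spliced sequence and 3 of another.

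**Figure D1:**
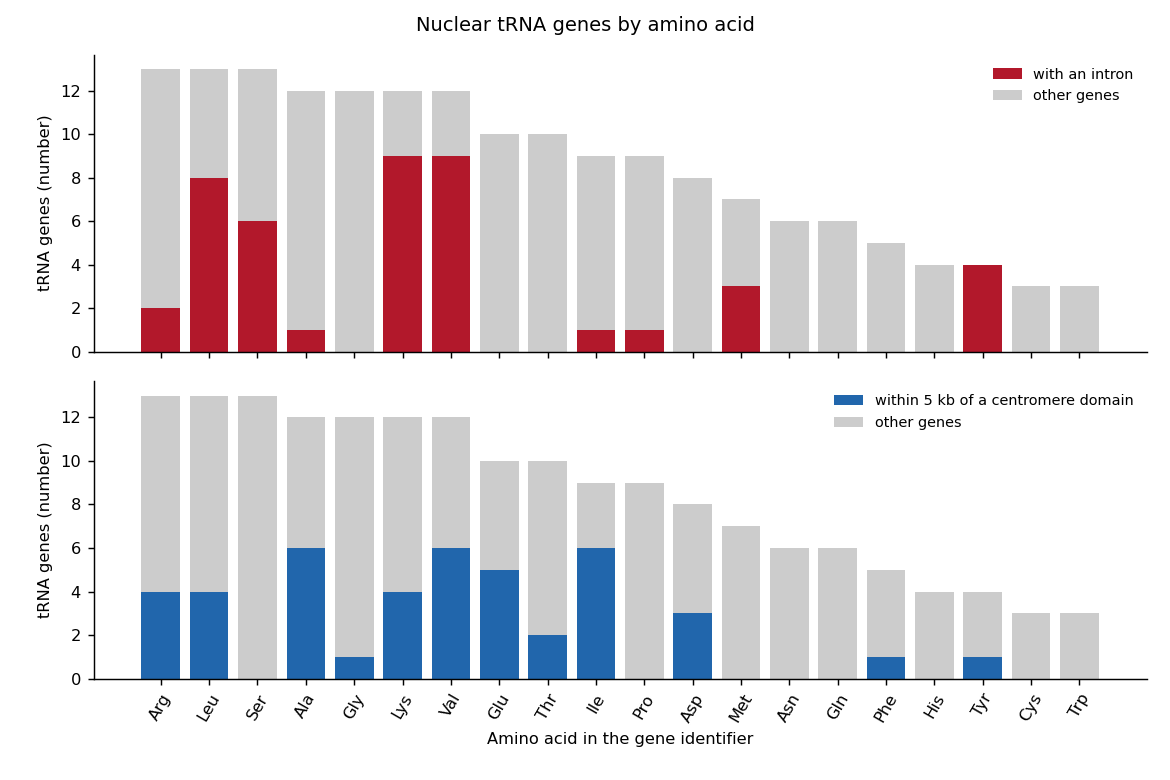
Number of nuclear tRNA genes (vertical axis) for each amino acid named in the gene identifier (horizontal axis), split in the upper panel by having an intron and in the lower panel by lying within 5 kb of a centromere domain. All 4 tyrosine genes have an intron, and 6 of the 9 isoleucine genes lie within 5 kb of a domain.

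The gene set was highly repetitive. The 171 genes gave 64 distinct spliced sequences, of which 32 were held by 1 gene only, and 139 genes shared their spliced sequence with at least 1 other. With the exon borders of SPBTRNALYS.07 and SPBTRNASER.06 moved to those of their twins, the number of sequences was 62, and with SPBTRNAASP.05 reversed as well it was 61, with 142 genes sharing one. Genes were 71 to 102 bp long with a median of 73 bp, and spliced sequences 71 to 86 bases. The GC content of the spliced sequences had a median of 54.2% and ran from 45.2% to 63.9%, above the 36.1% of the 3 RefSeq chromosomes in each of the 171 genes.

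Introns were annotated in 44 of the 171 tRNA genes, or 25.7%, with 16 of them on I, 17 on II and 11 on III. Of the 12459 other gene records on the 3 chromosomes 19.9% had an intron, and of the 5113 protein-coding genes 48.1%. Each of the 44 genes had 1 intron. The introns were short, 7 to 30 bp with a median of 9.5 bp, in 2 size classes: 30 were 7 to 11 bp and 14 were 15 bp or longer. In all 42 genes with an intron and an anticodon found, the intron began 1 base after the anticodon. In SPBTRNAARG.05, shown above, the anticodon CCT and a single base precede the longest intron, of 30 bp.

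In the main annotation, whether a tRNA gene had an intron went with its anticodon. For 15 anticodons every gene had an intron, 39 genes in all, and for 29 anticodons no gene had one. Of the 15, 8 were held by 1 gene each, so only the other 7, with 31 genes, could have been mixed. The second annotation used here, described below, has an intron or split record for 25 of these 31 genes, and for every gene of only 3 of the 7 anticodons. Methionine CAT was the exception, with an intron in 3 of 7 genes. The 3 genes with an intron, SPATRNAMET.02, SPBTRNAMET.04 and SPBTRNAMET.05, shared 1 spliced sequence, and the 4 without shared the other, so no spliced sequence was found both with and without an intron. Methionine tRNAs come in an initiator and an elongator form, which the identifiers do not tell apart.

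Lysine and valine had the most genes with an intron, 9 each. All 9 valine AAC genes had one, of 8 bp in SPATRNAVAL.03 and 9 bp in the others, and none of the 3 other valine genes did. All 8 lysine CTT genes had an intron of 8 bp, and none of the 3 lysine TTT genes did. Leucine had 8 such genes, with introns of 19 bp in all 4 CAA genes, 16 bp in both TAA genes, 18 bp in the TAG gene and 10 bp in the CAG gene. Serine had 6, with introns of 9 to 16 bp. All 4 tyrosine genes had an intron of 10 bp. Methionine had 3 genes with an intron, arginine 2, and alanine, isoleucine and proline 1 each, of 11, 25 and 24 bp in that order. The other 10 amino acids had none.

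**Figure D2:**
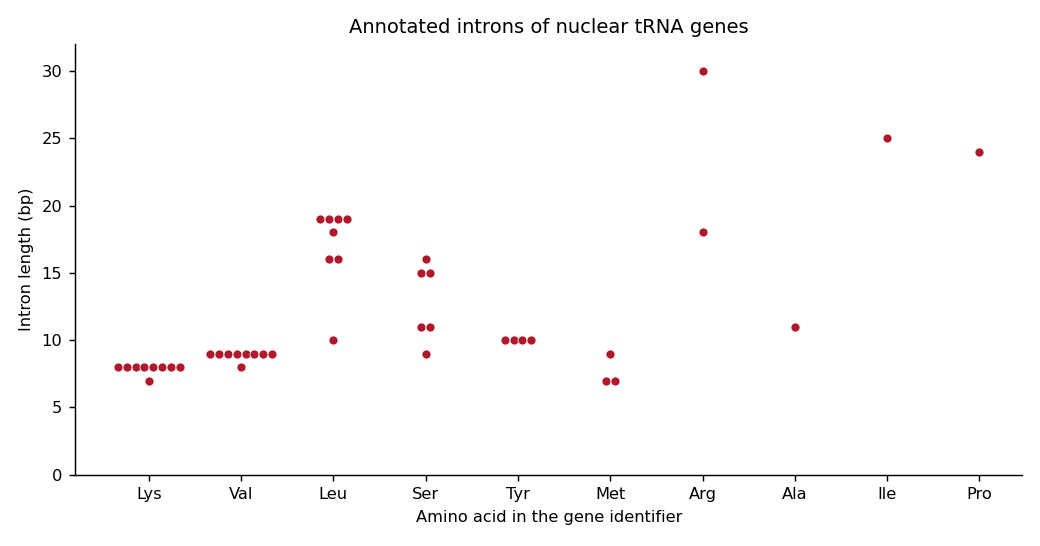
Length of each annotated intron in bp (vertical axis) by the amino acid of the gene (horizontal axis), 1 point per gene for the 44 genes with an intron. The lysine, valine, tyrosine and methionine introns all lie between 7 and 10 bp, and the longest, 30 bp, is in an arginine gene.

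The letters of an intron could differ where the exons did not. SPBTRNAMET.04 and SPBTRNAMET.05 differed at A40G and C45T, counted from 1 at the first base of the gene, both inside the intron of 7 bp. Of the tyrosine genes, SPBTRNATYR.02 and SPBTRNATYR.03 were identical, and SPBTRNATYR.02 differed from SPBTRNATYR.04 by 3 substitutions, C28T, T42A and A45C. The first falls in an exon and the other 2 in the intron, which starts at base 39 and is 10 bp long.

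Both genes with an intron and no anticodon found were copies of genes that had one. SPBTRNALYS.07 had 0 differences from SPBTRNALYS.08 over 83 bases, but its intron is annotated as 7 bp and not 8 bp, which leaves a spliced sequence of 76 in place of 75 bases. Read with the borders of SPBTRNALYS.08 it gave the anticodon CTT and the same spliced sequence. The second annotation gives an intron record of 8 bp for SPBTRNALYS.07. SPBTRNASER.06 likewise had 0 differences from SPCTRNASER.10 over 95 bases, with an intron annotated as 9 bp and not 11 bp and a first exon of 41 and not 39 bases. With the borders of SPCTRNASER.10 it gave the anticodon GCT. The serine and lysine genes shown at the start make the shift of the border visible, at the 5′ end of the serine intron and at the 3′ end of the lysine intron.

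Almost all of the genes held the B box letters, and the exceptions fell in families. The B box GTTCNANNC was found on the annotated strand of 156 genes, or 91.2%, and in 1.25% of consecutive genome windows of 73 bases on 1 strand. The 15 genes without it were all 9 alanine AGC genes, the 4 methionine genes without an intron, SPATRNAARG.01 and SPBTRNAASP.05. In the alanine genes the closest stretch had 2 mismatches. In the 4 methionine genes it had 1, in the letters GATCGAAAC from base 52. On either strand the letters were found in 161 genes, against 2.33% of windows. They occurred on the other strand of 12 genes, namely 6 isoleucine AAT genes, the same 4 methionine genes, SPATRNALEU.01 and SPBTRNAASP.05. With 1 mismatch allowed, 162 genes matched on the annotated strand, but so did 22.8% of windows. The A box was searched as TRGYNNARNNG, where R is A or G, Y is C or T and N is any base. It was matched in 146 genes, or 85.4%, against 2.86% of windows. The 25 genes without an exact match to these letters included all 8 isoleucine AAT and all 5 leucine AAG genes. They also included the 4 methionine genes without an intron and all 3 tryptophan genes.

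A run of at least 4 T, the terminator of RNA polymerase III, followed closely. It began within 40 bases after 167 genes, or 97.7%, at a median of 3 bases from the gene end. In 146 genes it began within 10 bases, a limit for which no background share was counted. The largest distance was 33 bases. Such a run was found in 32.7% of consecutive genome windows of 40 bases and in the 40 bases after 39.6% of other RefSeq genes. A run of 5 T followed 164 genes, against 13.5% of windows. The 4 genes without a run of 4 T, SPATRNASER.01, SPATRNASER.03, SPCTRNASER.11 and SPBTRNAMET.05, each had another tRNA gene 5 or 7 bp away. The serine genes among them are followed directly by a methionine gene.

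Clustering was a feature of a minority of the genes. A tRNA neighbour within 2 kb, measured from edge to edge on either strand, was found for 66 of the 171 genes, or 38.6%, with 10 of them on I, 36 on II and 20 on III. A tRNA gene lay within 2 kb of 5.51% of the 12459 other gene records. Small nucleolar RNA genes, another set of short non-coding genes, had a neighbour of their own kind within 2 kb in 31.8% of 66 cases. The 66 clustered genes formed 18 chains of neighbours, 10 of them pairs and 8 with at least 3 genes. These 8 chains held 46 genes. The gap to the nearest tRNA gene ran from 5 to 206042 bp over all genes, with a median of 12625 bp.

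The clusters stood mostly around the centromeres. Of the 66 clustered genes 49 lay within 50 kb of the centre of a central core. The median gap to the nearest tRNA gene was 297.5 bp for the 56 genes within that distance and 32398 bp for the 115 genes further away, of which 17 were clustered. In bins of 100 kb, the 2 bins at the core held 11, 27 and 21 tRNA genes on chromosomes I, II and III. No other bin held more than 3, 5 and 3. Other gene records were not counted at the 50 kb and 100 kb scales, so no background share stands beside these counts.

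**Figure D3:**
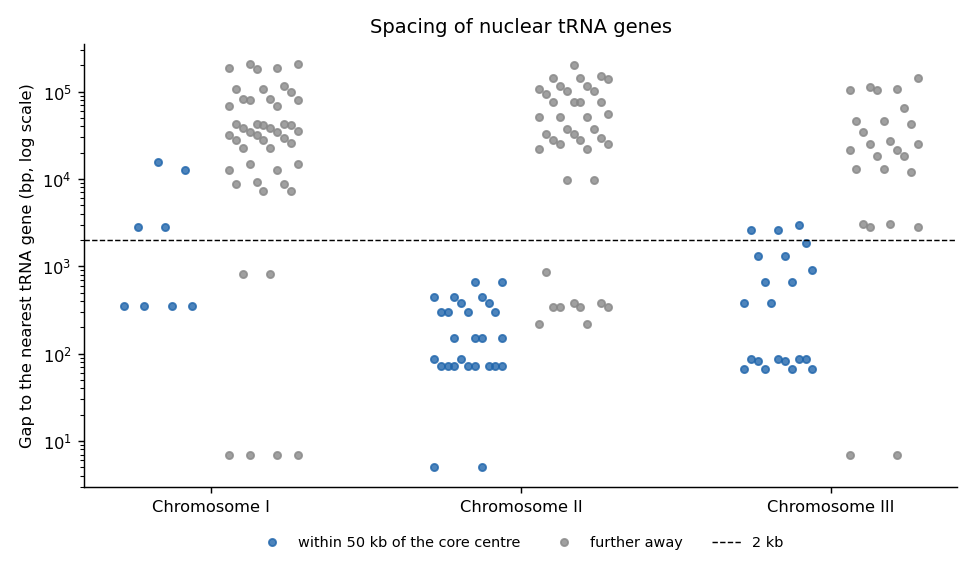
Gap from each tRNA gene to the nearest other one in bp (vertical axis, log scale) by chromosome (horizontal axis), with genes within 50 kb of a core centre in blue, genes further away in grey and a dashed line at 2 kb. The genes of chromosome II within 50 kb of the core all lie below 2 kb, and the pairs at 7 bp are the serine and methionine genes.

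The longest chains were on chromosomes II and III. On chromosome II, 12 genes lay within 4422 bp to the left of the centromere, at 1597996 to 1602417, in the order SPBTRNAASN.01, SPBTRNAMET.05, SPBTRNATYR.02, SPBTRNALEU.06, SPBTRNAGLY.07, SPBTRNALYS.07, SPBTRNAILE.05, SPBTRNAALA.08, SPBTRNAVAL.05, SPBTRNAGLU.06, SPBTRNAARG.06 and SPBTRNAASP.05. The gaps between them ran from 5 to 660 bp. To the right of the same centromere 9 genes lay within 3507 bp. On chromosome III, 8 genes lay within 6132 bp left of the centromere, SPCTRNAALA.12, SPCTRNAVAL.12, SPCTRNASER.09, SPCTRNAARG.10, SPCTRNAASP.05, SPCTRNAARG.11, SPCTRNALEU.11 and SPCTRNALYS.10, with gaps of 82 to 1848 bp. Chromosome I had only pairs, 5 of them: SPATRNASER.01 with SPATRNAMET.01, SPATRNACYS.03 with SPATRNAPHE.01, SPATRNAALA.04 with SPATRNAGLU.03, SPATRNAGLU.04 with SPATRNAALA.05, and SPATRNASER.03 with SPATRNAMET.03. Of the 48 pairs of neighbours in all chains, 24 were on the same strand, 14 converged and 10 diverged.

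The serine and methionine pairs were the tightest arrangement more than 50 kb from a core centre. There were 3, a pair of them on chromosome I and the other on chromosome III, each with the serine gene first, both genes on the plus strand and 7 bp between them. The bases between the genes were the same GTATTTG in all 3. SPATRNASER.03 and SPCTRNASER.11, named sup3 and sup9 in the annotation, which read the anticodon TGA, differed by 1 substitution, T65C, and SPATRNASER.01 reads CGA. The 3 methionine genes had 0 differences from each other. A run of 7 T began 4 bases past the end of SPATRNAMET.03, as the bases printed above show. Other clusters more than 50 kb from a core centre were a trio of glutamine genes on chromosome II, SPBTRNAGLN.01 to SPBTRNAGLN.03 within 1466 bp, and 4 pairs. These were SPATRNACYS.03 with SPATRNAPHE.01, SPBTRNAGLY.04 with SPBTRNAALA.07, SPBTRNAGLY.05 with SPBTRNAARG.04 and SPBTRNALYS.09 with SPBTRNATYR.04, at 818, 216, 346 and 341 bp. The first of them was the nearest to a centromere, with SPATRNAPHE.01 at 52498 bp from a domain.

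A large minority of the set stood at the centromeres. In or within 5 kb of a dg, dh, inner repeat or central core record lay 43 genes, or 25.1%, which is 7 on I (12.5% of its tRNA genes), 22 on II (32.4%) and 14 on III (29.8%). Of the 12459 other gene records 1.11% lay as near. Overlap with a domain was found for 26 tRNA genes, or 15.2%, against 0.811% of other gene records. Inside the domains there were 209.8, 249.7 and 195.5 tRNA genes per Mb on the 3 chromosomes, and outside them 9.0, 13.1 and 15.0. The 5 kb limit crossed the cluster left of the centromere of chromosome II: SPBTRNALYS.07 lay 4997 bp from the nearest domain and SPBTRNAGLY.07 5378 bp. On chromosome III SPCTRNAPHE.05 lay just outside it, at 5188 bp. Between 5 and 10 kb there were 12 further genes, and the next gene beyond lay at 17534 bp.

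The genes inside the domains were almost all in the inner repeats. The 6 inner repeats, 30459 bp in all, held 22 tRNA genes, 6 on I, 6 on II and 10 on III. The 11 dg records held 4, SPATRNAALA.05, which also overlaps the inner repeat, and SPBTRNATYR.03, SPBTRNALEU.07 and SPBTRNAGLY.08. Their identical copies left of the core, SPATRNAALA.04, SPBTRNATYR.02, SPBTRNALEU.06 and SPBTRNAGLY.07, overlap no dg record. The 16 dh records, 47163 bp in all, held 0. The 3 central cores held 1, SPCTRNAGLU.10 on chromosome III, which is a glutamate CTC gene at 1095692 to 1095763 on the minus strand, with no partner on the other side of the core.

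**Figure D4:**
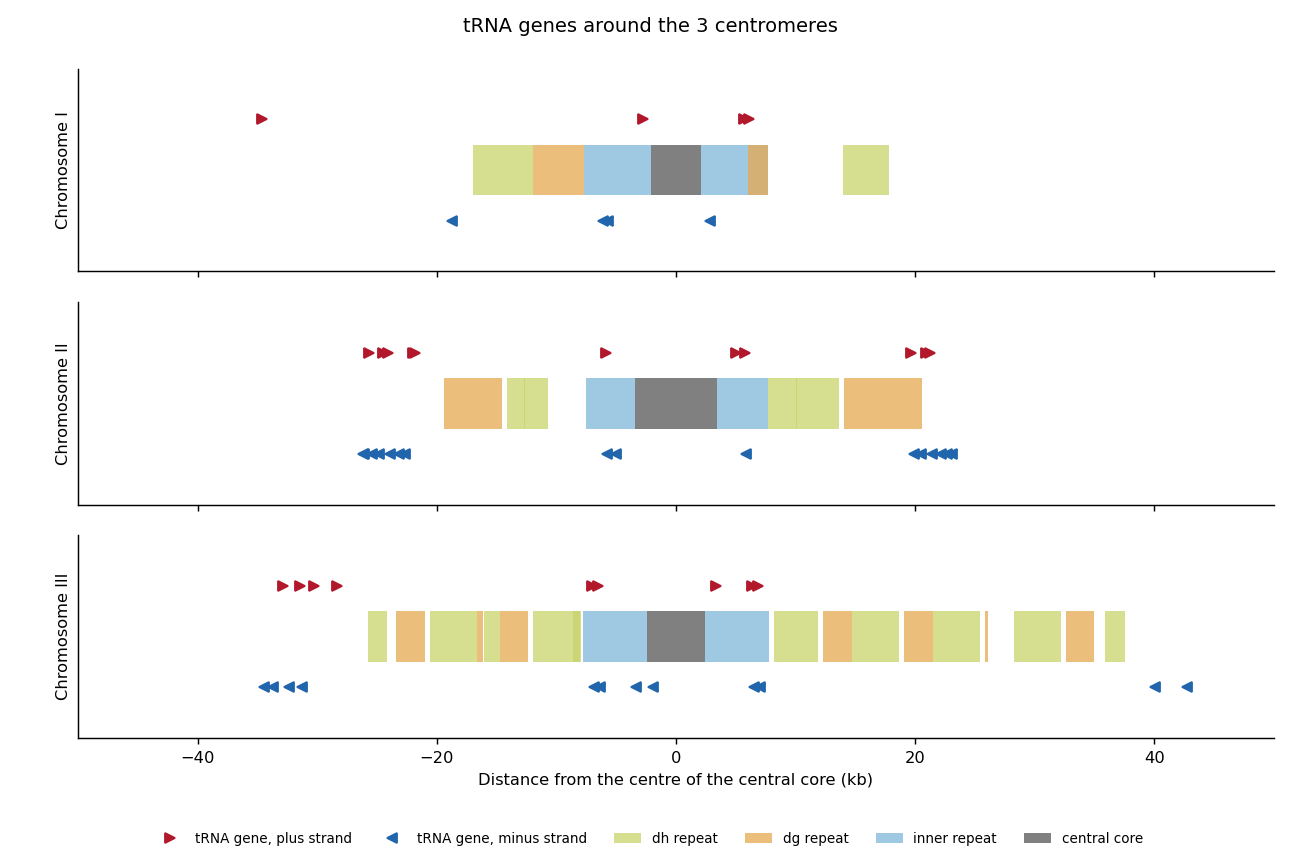
Annotated centromere domains (coloured bars) and tRNA genes (triangles, plus strand above and minus strand below) against the distance in kb from the centre of the central core (horizontal axis), with 1 panel per chromosome. The inner repeats hold 22 genes in mirrored order, and the dh records hold 0.

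On chromosome I the inner repeats held 3 kinds of gene in mirror order. On the left SPATRNAALA.04, SPATRNAGLU.03 and SPATRNAILE.03 lay at -6.09, -5.66 and -2.8 kb from the core centre, where negative values are to the left. On the right SPATRNAILE.04, SPATRNAGLU.04 and SPATRNAALA.05 lay at 2.82, 5.67 and 6.1 kb. The alanine and glutamate genes were 352 bp apart on both sides and pointed away from the core, and the isoleucine genes pointed towards it. The isoleucine genes lay 714 and 725 bp from the edge of the core, and the alanine genes 1566 bp from the outer edge of the inner repeat on either side. One exact match of 4283 bp, in inverted orientation, held all 3 genes. Outside the domains SPATRNAPHE.02, a phenylalanine GAA gene, lay 1720 bp left of the outermost dh repeat. The nearest tRNA gene right of the centromere, SPATRNALEU.04, was 270046 bp away.

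On chromosome II each inner repeat held an isoleucine, an alanine and a valine gene. SPBTRNAILE.06, SPBTRNAALA.09 and SPBTRNAVAL.06 lay 5.88, 5.73 and 4.99 kb left of the core centre. SPBTRNAVAL.07, SPBTRNAALA.10 and SPBTRNAILE.07 lay 4.99, 5.73 and 5.88 kb right of it. The gaps were 73 bp between isoleucine and alanine and 660 bp between alanine and valine, the same on both sides. The valine genes lay 1550 and 1549 bp from the core edge. The same trio, with the same gaps and relative strands, stood in the outer clusters as SPBTRNAILE.05, SPBTRNAALA.08 and SPBTRNAVAL.05 on the left and SPBTRNAILE.08, SPBTRNAALA.11 and SPBTRNAVAL.08 on the right. SPCTRNAALA.12 and SPCTRNAVAL.12, left of the centromere of chromosome III, repeated the gap of 660 bp. SPCTRNAALA.12 had 0 differences from SPBTRNAALA.08, yet the exact match around this pair was 112 bp.

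The outer clusters of chromosome II were direct and not mirrored copies. A block of 8 genes in the order tyrosine, leucine, glycine, lysine, isoleucine, alanine, valine and glutamate, from SPBTRNATYR.02 to SPBTRNAGLU.06 on the left and from SPBTRNATYR.03 to SPBTRNAGLU.07 on the right, stood in the same order and on the same strands 45.34 kb apart. Exact matches of 1494 bp held the first 4 genes and of 1636 bp the last 4. The right copy has its first 3 genes inside the dg record and its others 296 to 2081 bp outside it. It ends with SPBTRNAARG.07, an arginine ACG gene 2535 bp from the dg record. The left copy goes on to SPBTRNAARG.06 and SPBTRNAASP.05, 2525 and 2368 bp from the nearest dg record. SPBTRNAARG.06 and SPBTRNAARG.07 were identical over their 73 bp and no further.

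On chromosome III the inner repeats held 5 genes a side. In order towards the core, SPCTRNAASP.06, SPCTRNAARG.12, SPCTRNAVAL.09, SPCTRNATHR.08 and SPCTRNALEU.12 lay 7.03, 6.87, 6.52, 6.38 and 3.36 kb left of the core centre. SPCTRNAASP.07, SPCTRNAARG.13, SPCTRNAVAL.10, SPCTRNATHR.09 and SPCTRNALEU.13 lay at the same distances to the right. An inverted exact match of 6443 bp held all 5 genes. The leucine genes lay 878 bp from the core edge on both sides and the aspartate genes 737 bp from the outer edge of the inner repeat. SPCTRNALYS.10 and SPCTRNALYS.11 stood 2532 bp beyond the outermost dh repeat on the left and on the right, in inverted orientation within an exact match of 1960 bp. SPCTRNALEU.11, a leucine AAG gene, lay 4463 bp from the nearest dh repeat on the left.

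Long exact matches around identical tRNA genes were found at the centromeres. Among the 297 pairs of tRNA genes with identical sequence, 18 lay in an exact match of at least 1 kb, and these pairs hold 36 genes. The 18 are not separate matches, as stretches of 6443, 4283, 1636 and 1494 bp each held several pairs. Pairs that share a stretch were counted separately here and in the medians below. In 15 of the 18 both genes were within 5 kb of a domain, and the other 3 were pairs of the outer block of chromosome II of which the left gene lies between 5 and 10 kb. Among the 134 pairs with neither gene within 5 kb the longest match was 135 bp. The medians were 96.0 bp for the 62 pairs with both genes within 5 kb and 75.5 bp for the 134 pairs with neither. Each length includes the gene itself, and gene length was not matched between these groups. These matches were read from the RefSeq assembly. The main deposited annotation has 2 assembly gap records inside its centromere records.

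**Figure D5:**
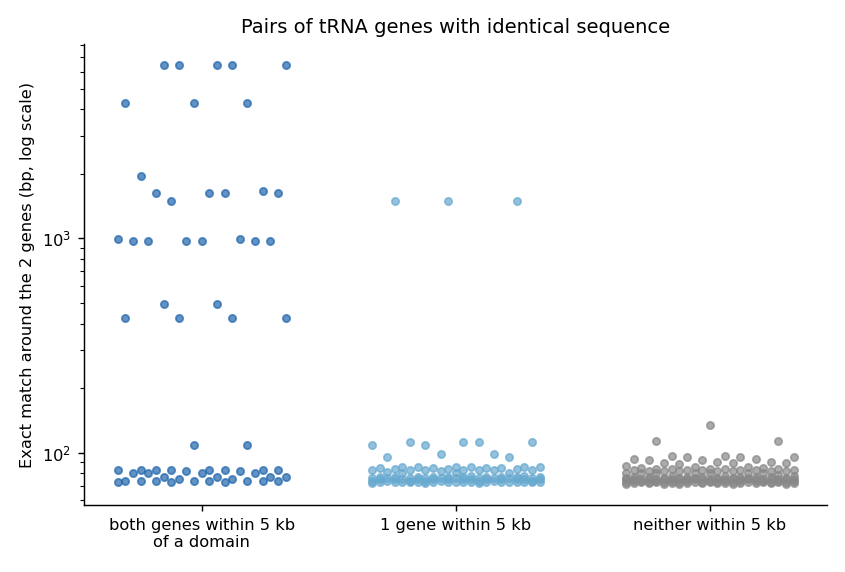
Length in bp of the exact sequence match that contains both genes (vertical axis, log scale) for the 297 pairs of tRNA genes of identical sequence, by how many genes of the pair lie within 5 kb of a centromere domain (horizontal axis), 1 point per pair. Pairs that share a stretch are separate points at the same height. Matches above 1 kb reach 6443 bp with both genes near, and no pair with neither gene near exceeds 135 bp.

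The genes within 5 kb of a domain covered 12 of the 20 amino acids. Alanine, isoleucine and valine gave 6 each and glutamate 5, the largest numbers. Together these amino acids gave 23 of the 43 genes, against 43 of all 171. They were picked for their high counts, so a larger share was fixed by that choice. Most of these genes are also copies within the repeated blocks described above, and not separate placements. Of 9 alanine AGC genes 6 were within 5 kb of a domain, and so were 6 of 9 valine AAC genes, 4 of 8 arginine ACG genes and 3 of 4 leucine CAA genes. All 6 genes of 1 isoleucine AAT sequence, the 6 that hold the B box letters on both strands, were near, and both genes of the other AAT sequence, SPATRNAILE.01 and SPCTRNAILE.09, were not. Asparagine, cysteine, glutamine, histidine, methionine, proline, serine and tryptophan had 0 genes within 5 kb. Part of this depends on the limit. SPBTRNAASN.01, SPBTRNAMET.05 and SPCTRNASER.09 lay 6716, 6630 and 6998 bp from a domain, in clusters that the limit crosses. An intron was annotated in 14 of the 43 near genes (32.6%) and 30 of the 128 others (23.4%). Of the near genes 42 shared their whole gene sequence with another tRNA gene, all but SPBTRNAASP.05, and of the others 91 did.

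SPBTRNAASP.05 had neither an anticodon loop nor a B box on its annotated strand. Its reverse complement had 0 differences from SPCTRNAASP.05 and SPBTRNAASP.04 and gave the anticodon GTC, which reads aspartate. Aspartate and arginine genes that point towards each other stood side by side in 3 other places, SPCTRNAASP.05 with SPCTRNAARG.11, SPCTRNAASP.06 with SPCTRNAARG.12 and SPCTRNAASP.07 with SPCTRNAARG.13, at 82, 87 and 87 bp. A further pair of neighbours, SPCTRNAARG.10 and SPCTRNAASP.05, is 864 bp apart and points apart. SPBTRNAASP.05 lies 86 bp from SPBTRNAARG.06, and as annotated these genes point the same way. RefSeq names the product of SPBTRNAASP.05 and of SPCTRNAASP.05 to SPCTRNAASP.08 tRNA-Asn, 5 genes in all. The 4 on chromosome III carry the anticodon GTC.

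The second annotation, exported from Geneious for a genome with a modified chromosome III and called the tetarr6 annotation here, held 170 tRNA gene records, of which 169 had the identifiers of the first. It has no record under SPBTRNAARG.06 or SPBTRNAASP.05. At 1602188 to 1602260 on chromosome II, the exact place of SPBTRNAARG.06, it has SPBTRNAASP.03 with the product tRNA-Asp, while the sequence there holds the anticodon ACG, which reads arginine. Like RefSeq, the tetarr6 annotation names the product of SPCTRNAASP.05 to SPCTRNAASP.08 tRNA-Asn. It names that of SPBTRNAGLY.06 tRNA-Lys, while RefSeq has tRNA-Gly and the anticodon GCC reads glycine. It flags 1 gene as a pseudogene, SPCTRNAVAL.12, which had 0 differences from SPBTRNAVAL.05. Its positions equal those of the first annotation for all 56 genes of chromosome I. They differ by -6539 bp for 16 genes of chromosome II and by 3041 or 1213 bp for 32 and 13 genes of chromosome III. Against RefSeq, the first annotation's genes stand 0 bp apart on I, 0 or -6539 bp on II and 0 or 1807 bp on III, so the order and gaps of the tRNA genes are kept within each block.

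Most tRNA genes overlapped no other gene record. An overlap with another gene record was found for 24, or 14.0%, always with a gene on the other strand, and for 1 of them, SPATRNATYR.01, with a protein-coding gene. Of the protein-coding genes 91.1% overlapped another gene record. These shares cannot be compared directly, because tRNA genes are only 71 to 102 bp long and gene length was not matched. The share over all 12459 other gene records was not counted, so no usable background stands beside the 14.0%. The median distance to the nearest protein-coding gene was 592 bp over all tRNA genes. It was 13658 bp for the genes within 5 kb of a centromere domain and 401.0 bp for the others. A long terminal repeat of a retrotransposon lay within 1 kb of 7 tRNA genes, or 4.09%, and of 6.22% of other gene records, with 0 of the 7 within 5 kb of a centromere domain. The closest lay 3 bp from SPATRNAVAL.01.

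The genes that transcribe, splice, trim and export tRNAs were located relative to the tRNA genes. All 28 listed genes were annotated, 12 on I, 10 on II and 6 on III. An intron was annotated in 14 of the 28, near the share of 48.1% over all 5113 protein-coding genes. Of the 28, 0 lay within 2 kb of a tRNA gene; the background of 5.51% is small enough that this count, in so short a list, is near it. The closest was rpc37, a subunit of RNA polymerase III, at 3183 bp from SPCTRNAGLU.09. The median distance was 44979 bp for the 28 genes and 35569 bp for all 5113 protein-coding genes. Among the TFIIIC genes, sfc3 lay 13095 bp and sfc1 18326 bp from a tRNA gene, sfc9 27477, sfc6 55127 and sfc4 112905 bp. The TFIIIB genes bdp1, tbp1 and brf1 lay 97926, 115705 and 116250 bp away. Of the splicing endonuclease genes sen54 was nearest, at 17025 bp, and sen15 furthest, at 49948 bp. The ligase gene trl1 lay 89059 bp and the phosphotransferase gene tpt1 14336 bp away. The gene furthest from any tRNA gene was los1, which encodes a tRNA exporter, at 163974 bp.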

How the data were processed

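The 2 files are annotations of the genome as the authors deposited them, and the values taken from them are the start and end of each record in bp, which belong to no sample. The authors' main annotation credits PomBase, and the deposited tetarr6 file comes from Geneious 7.1.5, both per the file headers. The submitters' processing notes name BWA and Trimmomatic, with versions, settings and genome build not given in the sources used here. The libraries were grouped by strain set, genotype, antibody and fraction from their titles, but the files hold neither counts nor signal, so depth is unknown and no comparison between groups was made. A score would stand in the sixth field, which is empty in every record of both files.

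A tRNA gene was taken to have an intron where it had more than 1 exon, which the main annotation records as CDS. Intron lengths, and the introns of other genes, come from its intron records. Spliced sequences and intron positions were read with the exon records of RefSeq. Distances are from edge to edge, and a cluster is a chain of neighbours within 2 kb. Anticodons were read from the spliced sequence as a loop of 7 bases on a stem of 5 with at least 4 pairs. Identical genes were extended on both sides in RefSeq until the first mismatch. Motif backgrounds are consecutive windows of the RefSeq chromosomes. Distance, chain and anticodon steps were tested on simulated data. Genes named are those within 5 kb of a centromere domain, in the largest clusters, with the longest or shortest introns, in 1 annotation only or in a compared family, and 28 pathway genes; the tRNA genes given as exceptions to a motif, overlap or spacing count were chosen after their values were seen. The members and lists were chosen with earlier results of these data known. Python 3.11.15 and matplotlib 3.10.9 were used.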

Additional observations from a re-analysis of the deposited data

How the results depend on the processing

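The number of nuclear tRNA genes was 171 by gene records, by tRNA transcript records and in RefSeq, and 169 by identifiers shared with the tetarr6 annotation. Introns numbered 44 by the exon records of RefSeq as well and 35 by the split or intron records of the tetarr6 annotation. Neighbours within 1 kb, within 5 kb and within 2 kb from start to start gave 63, 75 and 66 genes, against 66. The count near the centromeres moved most. It was 43 within 5 kb, 26 for overlap only, 55 within 10 kb, 52 with the whole centromere records and 48 by tetarr6 positions. A smaller distance takes in fewer genes by construction. The B box was matched in 156 genes exactly and 162 with 1 mismatch, and a run of 5 T in place of 4 T followed 164 in place of 167 genes. No paired analysis was possible because no sample has a value in either annotation. All values depend on the annotations and on the assembly, and not on sequencing depth. The main annotation has gap records inside its centromere records.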
